A study of Mus musculus with 5 samples.

Results

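The G1 and S-phase regulators described here are 6 genes: the D-type cyclin genes Ccnd1 and Ccnd2, the kinase gene Cdk4, the transcription factor gene E2f1, the kinase gene Cdk2 and the cyclin E gene Ccne1. They were chosen by name as those array probes whose single gene symbol is one of these 6, which gave 7 probes of the 787 that carry a single symbol, or 6 of 773 named genes. Ccnd1 has 2 probes, numbered 70 and 251 in the deposited table, and each was read on its own. The samples are whole mouse cerebellum, total RNA on arrays, taken on embryonic day 18 (E18) and, after birth, on days 7 (P7), 14 (P14), 21 (P21) and 56 (P56). The sources used here do not give strain, sex or the number of animals per sample. Every age has 1 column, described in the labels as a mean over 2 array experiments, so no difference below has a replicate test, no p-value is given and the number of arrays limits the precision. Per the labels, the series was meant to help work out the genetic basis of how the cerebellum develops.

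A cell that is to divide first makes D-type cyclins, which join the kinases CDK4 and CDK6 and phosphorylate the retinoblastoma protein. This frees E2F transcription factors, which switch on cyclin E and other genes of S phase, and cyclin E with CDK2 then carries the cell into DNA replication. In the mouse cerebellum, granule cell progenitors on the surface of the tissue multiply after birth in response to Sonic hedgehog, whose signal maintains D-type cyclins and Mycn. They then leave the cycle and move inward to become granule neurons.

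The values lie between 0.01 and 100. They were taken to be percentages, scaled within each experiment so that a probe's highest age is 100%, and then averaged. The levels of different probes therefore cannot be ranked against each other, and only their profiles in percent were compared. The reading also limits what each experiment can have held: a mean of 100% requires 100% in both, a low mean caps each experiment at 2 times that mean, and a highest mean under 100% requires that the 2 experiments peaked at different ages. The words rose and fell are kept for differences of 2-fold or more, and values under 1% were set to 1%, which makes a fold against them a lower bound. Of 6 marker genes of granule cells 3 were measured, and of 6 of Purkinje cells 3; of the granule cell markers, the GABA-A receptor subunit genes Gabra6 and Gabrd stood at 94.2% and 71.8% at P14, against 4.67% and 0.61% at P7, while Neurod1, a transcription factor gene, stood at 96.1% at P14 against 94.2% at P7. The Purkinje cell markers Pcp2, Calb1 and Pvalb stood at 100%, 95.2% and 95.6% at P14, against 39.2%, 60.9% and 9.41% at P7.

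All 7 probes fell between the first week after birth and adulthood, and 6 of the 7 did so between P7 and P14. At P56 against P7, 7 of 7 probes were lower by 2-fold or more, where 52.3% of all 897 probes were. The folds ran from 2.63 (Ccnd1 probe 70) to at least 100 (Ccnd2). Their median log2 difference was -2.55, against -1.04 for all probes. At P56 against E18, 7 of 7 were again lower (52.5% of all probes), with a median of -2.27 against -1.07. None of the 7 rose in either comparison, where 18.8% and 22.6% of all probes did. A drop of over 50 points, which both experiments must share, was seen in 5 of the 7 each time. Of all probes, 39.5% (against P7) and 43.0% (against E18) had such a drop. Ccnd1 probe 70 (-44.4 points) and Ccne1 (-47.9) fell short of it against P7. Against E18, Ccnd2 (-49.5) and Ccne1 (-48.1) did. Since more than 1 in 2 probes of the whole table fell each time, the size and the timing of the falls say more about these 6 genes than their count. In whole tissue, fewer dividing cells and less RNA per cell cannot be told apart.

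**Figure D1:**
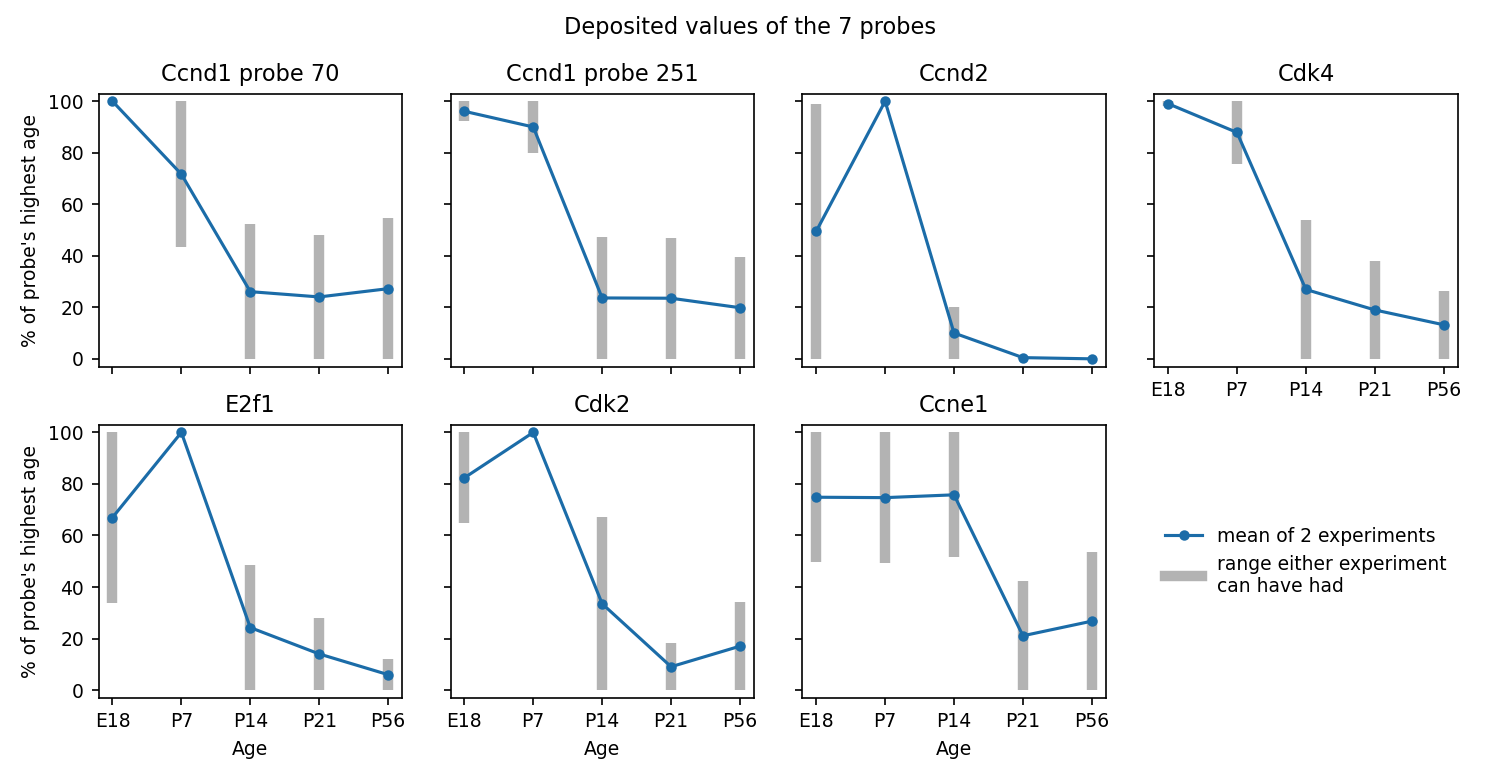
Deposited value of each of the 7 probes at E18, P7, P14, P21 and P56, as percent of the probe's highest age (points and line, mean of 2 experiments); grey bars span the values that either experiment can have had if both lie between 0 and 100%. Ccnd2, E2f1 and Cdk2 stand at 100% at P7, Ccnd1 and Cdk4 are highest at E18, and Ccne1 stays near 75% until P14.

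Ccnd1 encodes cyclin D1. Its probe 70 stood at 100% at E18, 71.7% at P7, 26.1% at P14, 24.1% at P21 and 27.3% at P56. Probe 251 stood at 96.1%, 90.0%, 23.7%, 23.6% and 19.9% at the same ages. The means of both probes were highest at E18, fell between P7 and P14 and then changed by 1.19-fold at most at either later step. By P14, 97.3% of the whole drop of probe 70 from its highest to its lowest age was complete, and 95.0% of that of probe 251. The fold at P14 against P7 was 2.75 on probe 70 and 3.80 on probe 251. On probe 251 each experiment must have been lower at P14, by 1.69-fold or more, whereas on probe 70 the difference of -45.6 points is too small to fix the direction in both. The probes differed most at P7, by 18.3 points, and on average over the 5 ages by 6.51 points. That is close to the median of 7.06 points among the 14 genes of the table that have 2 probes, whose values range from 2.43 to 23.8 points.

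Ccnd2 encodes cyclin D2, the other D-type cyclin of the table and one that granule cell progenitors are known to use. Its deposited values were 49.5% (E18), 100% (P7), 10.1% (P14), 0.50% (P21) and 0.03% (P56). It was thus highest at P7 in both experiments and under 1% from P21 on. At P7 against E18 it rose 2.02-fold, the one member of the 7 probes to rise at this step, where 5.8% of all probes did. The rise is just past the threshold: with a pseudocount of 1% its log2 value becomes 0.9997, and the 2 experiments need only have been above 1.01-fold each. Ccnd2 then fell 9.95-fold at P14 against P7, by 4.98-fold or more in each experiment. At P21 it was at least 10.1-fold lower than at P14, and at P56 at least 100-fold lower than at P7. Each experiment can have held no more than 1.0% at P21 and 0.06% at P56.

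In the deposited means the D-type cyclins therefore had unlike profiles. The mean absolute difference over the 5 ages was 29.1 points between Ccnd2 and Ccnd1 probe 70 and 22.6 points between Ccnd2 and probe 251. Probes of 1 gene lay up to 23.8 points apart in this table, so only the first value is past that range. The D-type cyclins differed most at E18, where Ccnd2 lay 50.5 and 46.6 points below the Ccnd1 probes. At that age either experiment of Ccnd2 can have held anything from 0 to 99.0%. After P14 the Ccnd1 probes stayed between 19.9% and 27.3% while Ccnd2 went under 1%. No spread between replicates is available to set beside these differences.

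Cdk4 encodes the kinase partner of the D-type cyclins. It stood at 99.1% at E18, 87.9% at P7, 26.9% at P14, 19.0% at P21 and, in the adult, 13.2%. The mean was highest before birth and went down at every step. Since it was under 100% at E18, and P7 is the one other age at which an experiment can have reached 100%, Cdk4 must have been highest at E18 in 1 experiment and at P7 in the other, and the same holds for Ccnd1 probe 251. At P14 against P7 it fell 3.26-fold, by 1.41-fold or more in each experiment, and at P56 against P7 it fell 6.64-fold. Neither later step reached 2-fold: its log2 difference was -0.50 at P21 against P14 and -0.52 at P56 against P21. Of all pairs among the 7 probes, Cdk4 and Ccnd1 probe 251 lay closest, at 3.91 points, nearer than the probes of Ccnd1 lay to each other. Cdk4 lay 7.41 points from Ccnd1 probe 70 and 22.1 points from Ccnd2.

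**Figure D2:**
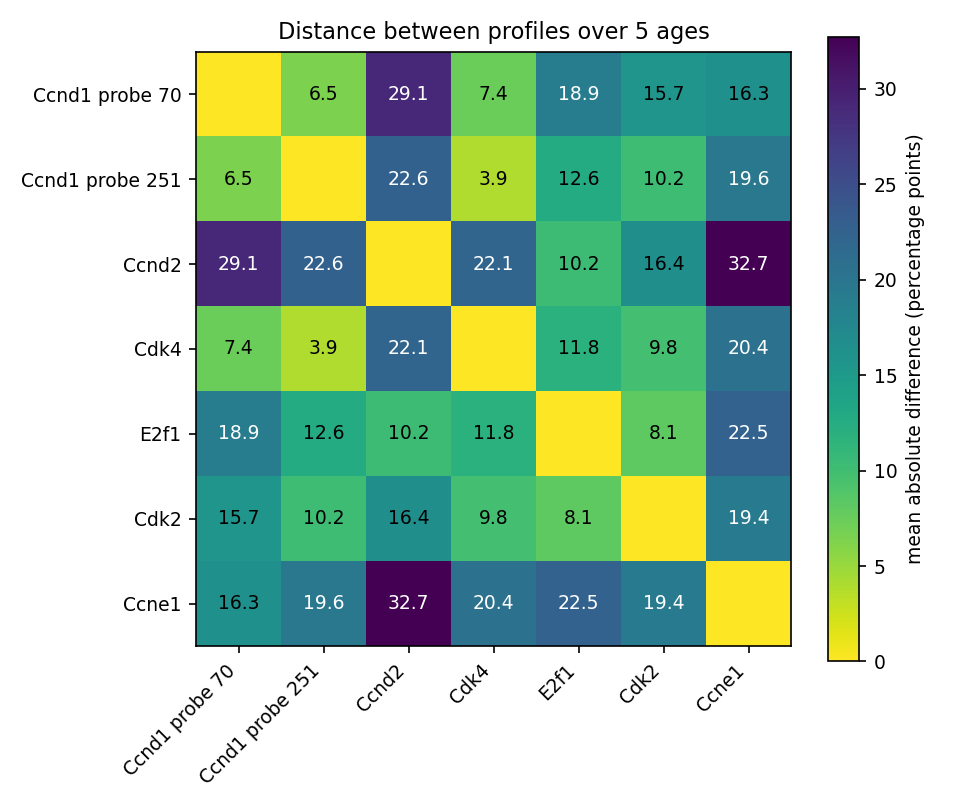
Mean absolute difference, in percentage points over the 5 ages, between the profiles of each pair of the 7 probes. Cdk4 and Ccnd1 probe 251 are closest (3.91 points), and Ccnd2 and Ccne1 are farthest apart (32.7 points).

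E2f1 encodes the transcription factor that the retinoblastoma protein holds back until D-type cyclin kinases act on it. It stood at 67.0% at E18, 100% at P7, 24.3% at P14, 14.0% at P21 and 5.99% at P56. The values were highest at P7 in both experiments, and their mean went down at each later age. At P7 against E18 the difference of 0.58 (log2) did not reach 2-fold. E2f1 fell 4.12-fold at P14 against P7, by 2.06-fold or more in each experiment. It was the one probe of the 7 with a fall past 2-fold at P56 against P21 (2.34-fold, where 2.23% of all probes fell), at values of 5.99% at P56 and 14.0% at P21; with quantile normalization this step becomes -0.9994 (log2), and with either higher floor on the values it becomes 0. At P56 against P7 it had fallen 16.7-fold, by 8.35-fold or more in each experiment.

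Cdk2 encodes the kinase partner of cyclin E and cyclin A. Its values were 82.4% at E18, 100% at P7, 33.5% at P14, 9.07% at P21 and 17.1% at P56. It was highest at P7 in both experiments, and its mean was lowest at P21. It fell at both steps after P7: 2.98-fold at P14 against P7, and 3.69-fold at P21 against P14, where 13.2% of all probes fell. Across those steps together each experiment can have held at most 18.1% at P21, against 100% in both at P7. At P56 against P21 it was higher by 0.91 (log2), short of 2-fold, and a low value such as 9.07% leaves each experiment anywhere from 0 to 18.1%. Cdk2 lay 8.13 points from E2f1 and 16.4 points from Ccnd2, while E2f1 lay 10.2 points from Ccnd2. In the deposited means, Ccnd2, E2f1 and Cdk2 thus shared P7 as their highest age, and Ccnd1 and Cdk4 shared E18. Both ages were common in the whole table, where 301 of all 897 probes were highest at P7 and 313 at E18. The highest ages of the means of these genes did not move with columns divided by their medians or with quantile normalization.

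Ccne1 encodes cyclin E1, the activator of CDK2 at the entry into S phase. Its values were 74.9% at E18, 74.7% at P7, 75.8% at P14, 21.1% at P21 and 26.8% at P56. The means of the first 3 ages lay within 1.09 points of each other, and the whole drop came between P14 and P21, by 3.59-fold. Ccne1 was the 1 probe of the 7 that did not fall at P14 against P7, with a log2 difference of 0.02, against a range of -3.31 to -1.46 for the other 6. In this step 6 of 7 probes fell, where 24.7% of all probes did. At P21 it had dropped by 54.7 points against P14, so both experiments must have been lower, by 1.22-fold or more each. At this step 15 of the 897 probes dropped by over 50 points. A profile within 2-fold at both earlier steps and then lower by 2-fold or more at P21 was seen in 56 of the 897 probes (6.24%).

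The highest mean of Ccne1, 75.8%, is among the lowest of the table, with 6 of 897 probes below it. Under the reading given above, the 2 experiments peaked at different ages, and where 1 of them stood at 100% the other stood at 51.6% or less, at least 48.4 points away. The mean profile is therefore that of unlike experiments, and which of E18, P7 and P14 was highest cannot be told. Even so, each experiment must have held at least 51.6% at P14 and at most 42.2% at P21. Against that, the highest value either experiment can have had at P14 was 20.1% for Ccnd2, 48.5% for E2f1 and 47.3% for Ccnd1 probe 251, which are below the least that Ccne1 allows; for Ccnd1 probe 70, Cdk4 and Cdk2 the limits of 52.2%, 53.9% and 67.0% overlap with it. Ccne1 lay between 16.3 and 32.7 points from the other 6 probes, and its own kinase partner Cdk2 was 19.4 points away, with the largest gap at P14 (42.3 points).

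**Figure D3:**
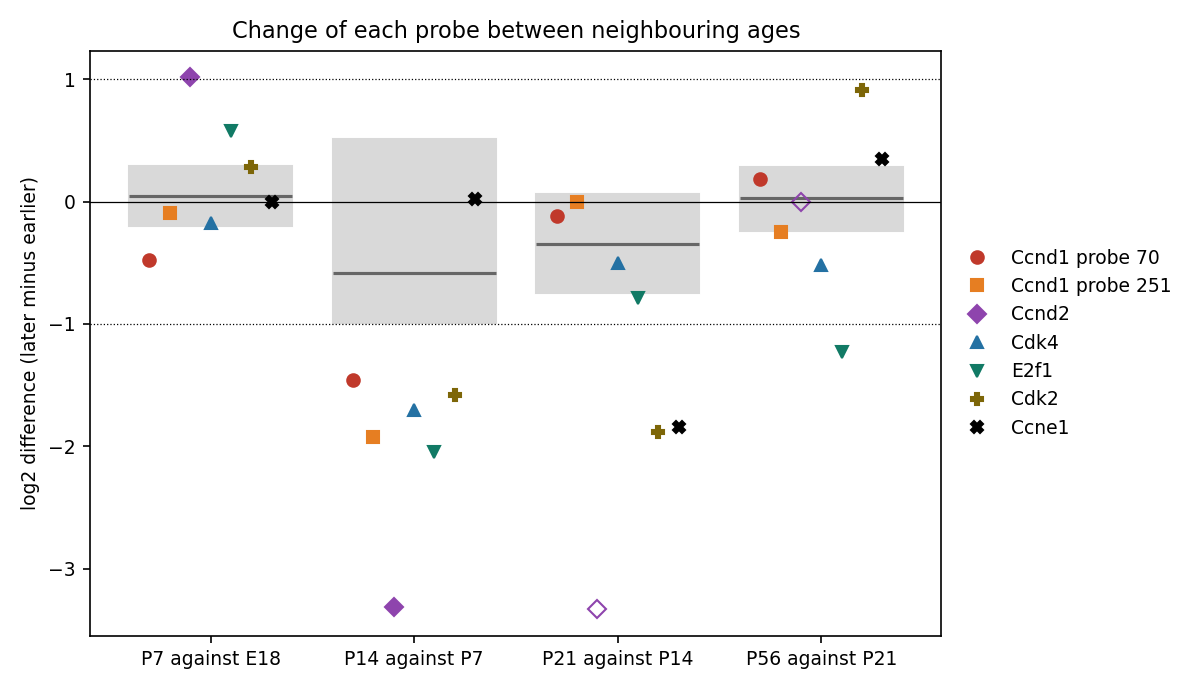
Log2 difference of each of the 7 probes between neighbouring ages, later minus earlier; grey boxes span the middle 50% of all 897 probes with a line at their median, dotted lines mark 2-fold, and open symbols mark a value under 1%. At P14 against P7 all probes but Ccne1 lie below the dotted line, and at P21 against P14 Ccnd2, Cdk2 and Ccne1 do.

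At P21 against P14, 3 of 7 probes fell (13.2% of all probes): Ccnd2, Cdk2 and Ccne1. The calls of Ccnd2 and Cdk2 rest on values near or under 10%: with all values under their 10th percentile (20.4%) raised to it, Ccne1 alone of the 3 remains. No probe of the 7 rose at P14 against P7, P21 against P14 or P56 against P21, where 14.4%, 3.23% and 2.68% of all probes did.

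The scale between columns bears on the long comparisons. The median value of all probes was 84.5% at E18, 82.8% at P7, 55.5% at P14, 42.3% at P21 and 42.0% at P56, and dividing every column by its median moves the median log2 difference at P56 against P7 from -1.04 to -0.06. On that scale 141 probes of the whole table were lower and 271 higher at P56 than at P7, in place of 469 and 169. Of the 7 probes, 5 stayed lower by 2-fold or more. Ccnd1 probe 70 (-0.42) and Ccne1 (-0.50) kept their direction but no longer passed, also with quantile normalization (-0.60 and -0.68). With the columns divided by their medians Ccnd1 probe 70 also missed 2-fold at P14 against P7 (-0.88), so that 5 of the 7 probes fell at this step. Among the 5, Cdk2 was just past the threshold (-1.002). Of all probes 105 were lower and 238 higher at this step on that scale, in place of 222 and 129. Ccnd2, Cdk4, E2f1, Cdk2 and Ccnd1 probe 251 passed at P56 against P7 under each floor, pseudocount and scaling tried. At P56 against E18 the columns divided by their medians again left out Ccnd1 probe 70 (-0.87) and Ccne1 (-0.47), and a floor at the 25th percentile left out Ccnd2 (-0.47) and E2f1 (-0.90).

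For 4 of the 6 genes, Cdk4, Cdk2, Ccne1 and E2f1, a promoter entry was found in the RefSeq table (build GRCm38.p6). The entry of E2f1 starts 466 bases inside the outermost start of the gene and is not shown. The 250 bases before the start of the other 3, whose entries begin at the outermost start, are printed 5′ to 3′. The falls of these 3 genes differed in timing. Cdk4 fell at P14 against P7, Cdk2 at that step and again at P21 against P14, and Ccne1 only at P21 against P14. Capitals mark, on either strand, the E-box CACGTG, which MYC and MAX proteins and other factors bind, the GC box GGGCGG, and 1 form of the E2F motif, TTTCCCGC, which lies on the opposite strand in Cdk2. A GC box on the opposite strand reads CCGCCC here.
Cdk4 (chr10:127063285-127063534, + strand): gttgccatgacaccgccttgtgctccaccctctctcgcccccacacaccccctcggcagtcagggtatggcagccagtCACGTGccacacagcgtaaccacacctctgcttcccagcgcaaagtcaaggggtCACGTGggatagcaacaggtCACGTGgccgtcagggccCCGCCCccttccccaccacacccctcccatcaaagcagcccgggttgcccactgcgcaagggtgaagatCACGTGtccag
Cdk2 (chr10:128705052-128705301, - strand): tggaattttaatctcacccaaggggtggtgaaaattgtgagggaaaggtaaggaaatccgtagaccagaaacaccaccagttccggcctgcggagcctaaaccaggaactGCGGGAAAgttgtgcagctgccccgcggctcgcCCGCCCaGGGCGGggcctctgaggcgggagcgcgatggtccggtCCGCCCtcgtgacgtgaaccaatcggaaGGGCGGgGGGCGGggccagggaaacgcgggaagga
Ccne1 (chr7:38107491-38107740, - strand): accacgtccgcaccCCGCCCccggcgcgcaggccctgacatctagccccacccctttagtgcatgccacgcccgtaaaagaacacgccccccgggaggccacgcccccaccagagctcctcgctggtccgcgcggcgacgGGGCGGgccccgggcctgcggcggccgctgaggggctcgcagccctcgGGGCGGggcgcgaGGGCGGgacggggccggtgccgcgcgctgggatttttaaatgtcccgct
Both strands were searched for 4 forms of the E2F motif (TTTCGCGC, TTTGGCGC, TTTCCCGC and TTTGCCGC), for CACGTG and for GGGCGG; no printed matches overlap. The E-box and the last 2 E2F forms were added after the sequences had been seen. Cdk4, known in human cells as a target of MYC, holds the E-box 4 times, at 172, 118, 98 and 11 bases before the start, and Cdk2 and Ccne1 hold none. At least 1 E-box was found in 6.02% of the 32851 windows of this length in the table, and 4 or more in 7 windows. GC boxes numbered 1 in Cdk4, 5 in Cdk2 and 4 in Ccne1, where 32.7% of windows hold at least 1, 4.09% at least 4 and 1.93% at least 5. Cdk2 holds TTTCCCGC once, 140 bases before the start, as do 0.895% of windows at least once; no other E2F form was found in these 3 windows. A match describes letters and shows no binding, and no match says only that these letters are absent from the window.

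Other regulators of G1 and of S-phase entry were measured with 11 probes of 10 genes, out of a list of 36 genes. Of the 11 probes, 7 fell and 2 rose at P14 against P7, where 24.7% of all probes fell and 14.4% rose. Ccna2, the cyclin A2 gene, fell 13.5-fold, and the genes of the CDK-binding proteins Cks2 and Cks1b fell 7.12-fold and 5.38-fold. Mycn, a MYC family gene that Hedgehog signalling maintains, had values of 93.2% (E18), 89.5% (P7), 17.9% (P14), 1.55% (P21) and 2.29% (P56), a fall of 5.01-fold at P14 against P7 and 11.5-fold at P21 against P14. Mycl, its relative, and Tfdp1, which encodes the dimer partner of E2F proteins, fell just past the threshold at P14 (2.01-fold and 2.02-fold). Mnat1, whose product assembles the CDK-activating kinase, was at 66.4% at P14 and 87.5% at P7, within 2-fold.

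The CDK inhibitor genes of the list, Cdkn1a and Cdkn1c, had unlike profiles. Cdkn1a, which encodes the CDK inhibitor p21, had its highest value at P14 on both of its probes, 100% on each, and rose there 2.05-fold and 2.16-fold over P7. Cdkn1c, which encodes the CDK inhibitor p57, was at 100% at E18, 43.1% at P7, 7.20% at P14, 7.99% at P21 and 5.81% at P56, and so was the one probe of this list to fall already at P7 against E18 (2.32-fold, where 2.79% of all probes fell). Fbxw7, which encodes a ubiquitin ligase subunit that marks cyclin E for breakdown, stood at 36.7% at E18, 62.0% at P7, 99.8% at P14, 99.4% at P21 and 78.4% at P56. Its difference at P14 against P7 was 0.69 (log2), within 2-fold, and at P56 against E18 it was 2.14-fold higher.

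Of the genes that act after the G1 regulators, 17 of S phase and DNA replication and 15 of G2 and mitosis were measured, 1 probe each. Between P7 and P14 all 17 of the first and 13 of the second fell (24.7% of all probes), with median log2 differences of -2.26 and -2.90, against -1.71 for the 7 probes and -0.58 for all probes. The 4 S-phase genes most changed at P56 against P7 were Mcm3, part of the MCM helicase (29.7-fold lower), Rrm2 (28.9-fold) and Tk1 (16.0-fold) of nucleotide synthesis, and Mcm10 (10.1-fold), a replication initiation factor. In the mitotic list they were Ncaph of the condensin complex (at least 97.8-fold lower), Prc1 of the spindle midzone (65.9-fold), Mki67, a marker of dividing cells (46.3-fold), and Cdk1, the kinase of mitosis (40.9-fold). P7 was the highest age of 16 of the 17 S-phase probes and 14 of the 15 mitotic ones, and of 3 of the 7 G1 and S-phase probes. Of all 897 probes, 301 were highest at P7. At P14 the 7 probes ran from 10.1% to 75.8%, the S-phase probes from 4.43% to 40.4% and the mitotic probes from 4.59% to 53.3%, so the mean value of Ccne1 lay above all S-phase and mitotic probes measured. With 1 column per age these list differences have no test.

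**Figure D4:**
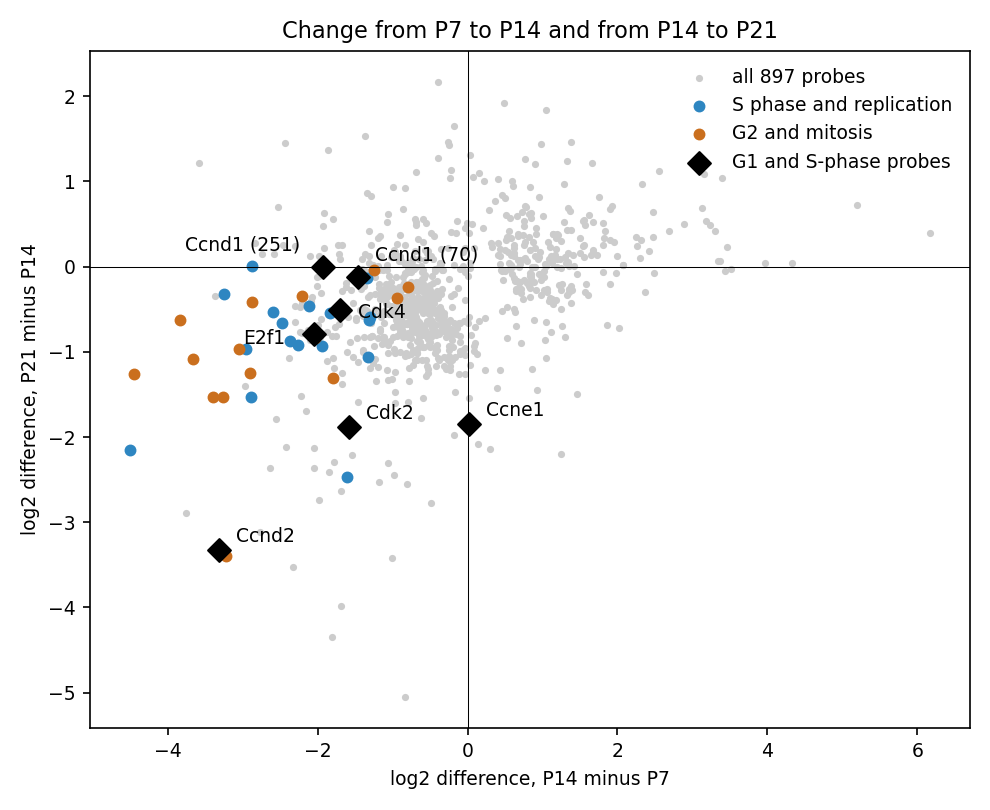
Log2 difference of each probe at P14 against P7 (horizontal) and at P21 against P14 (vertical), for all 897 probes (grey), the S-phase and mitotic lists (blue and orange) and the 7 G1 and S-phase probes (black diamonds; values under 1% set to 1%). Ccne1 lies on the vertical zero line with a log2 difference of -1.85 at P21 against P14, and the other 6 lie at -1.46 or lower on the horizontal axis.

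The mean of Cdk2 was higher at P56 than at P21, and so were those of part of the S-phase list: 11 of the 17 S-phase probes stood higher, as did 52.1% of all probes, and 2 of them rose by 2-fold or more (2.68% of all probes). These 2 were Lig1, the replicative DNA ligase gene, at 21.2% at P56 against 5.93% at P21, and Tk1, at 6.26% against 0.04%. The P21 value of Tk1 was set to 1%, and neither difference is large enough to fix the direction in both experiments. Of the other G1 regulators 2 of 11 probes stood higher at P56 than at P21, and of the mitotic list 6 of 15. Of the 7 probes 3 stood higher at P56 than at P21: Ccnd1 probe 70 (0.18), Cdk2 (0.91) and Ccne1 (0.34 on the log2 scale), none by 2-fold.

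The named probes with the smallest mean absolute difference over the 5 ages were found for each member. For Ccnd1 probe 70 they were Igfbp2, an IGF-binding protein gene (1.61 points), the histone chaperone gene Nap1l1 (2.11) and the receptor gene Notch3 (2.63). Ccnd1 probe 251 and Cdk4 had their first 2 in common: Smarcc1, a chromatin remodelling subunit gene (2.06 and 2.44 points), and Hnrnpab, an RNA-binding protein gene (2.31 and 2.27); Tmpo, a nuclear envelope gene (2.86), followed for the first and En1, a homeobox gene (3.23), for the second. Ccnd2 was nearest to Igfbpl1 (2.44 points), Mki67 (3.04) and Ncaph (4.65), and E2f1 to Dtl, a ubiquitin ligase subunit gene (2.77), Abracl (3.78) and the condensin gene Smc4 (3.82). Cdk2 was nearest to Lig1 (2.37 points) and the histone genes H1f10 (2.81) and H2az2 (3.25). The nearest of Ccne1 were much farther off: Socs2, a gene of cytokine signalling (7.83 points), Basp1, a gene of growing axons (9.24), and Tnfrsf21, a death receptor gene (9.54). All these distances come from the same 5 columns. They were taken on the percent values as deposited, so a highest mean under 100%, such as the 75.8% of Ccne1, enters them beside the shape.

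The list of Hedgehog signalling and progenitors has 24 genes, of which 7 were measured, with 1 probe each. Shh, Ptch1, Smo, Gli1 and Atoh1 were not among them, and Mycn is also in the list of G1 regulators. At P56 against P7, 6 of the 7 fell, where 52.3% of all probes did, with a median of -1.67 against -1.04 for all probes. Besides Mycn these were Sfrp1, a secreted Wnt antagonist gene (9.35-fold), and the transcription factor genes Nhlh1 (7.72-fold), Meis1 (3.18-fold), Pax6 (2.96-fold) and Neurod1 (2.32-fold); Gas1, a Hedgehog co-receptor gene, was at 45.8% at P56 and 70.0% at P7. Only Mycn and Sfrp1 of the 7 fell already at P14 against P7. Neurod1, a gene of differentiating granule neurons, held 94.2% at P7, 96.1% at P14 and 95.2% at P21 before it fell at P56.

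Lists of other cell types moved at the same ages. At P14 against P7 all 7 probes of mature granule cells rose (median 2.69), as did 6 of 9 of Purkinje cells (1.35) and 5 of 6 of oligodendrocytes (2.21). The sixth, the progenitor gene Pdgfra, fell to 12.8% at P14, against 100% at P7. Of 9 astrocyte probes 4 rose and 2 fell, and of 12 probes of meninges, vessels and immune cells 6 fell and none rose. The shares of all probes at this step were 14.4% risen and 24.7% fallen. The most changed of these lists at P56 against P7 went both ways. Higher at P56 were Gabrd and Gabra6 of the granule cell list, Atp2a3 and Nptx1 of the Purkinje cell list, the myelin genes Mobp and Mog, and Ntsr2 of the astrocyte list. Lower were Tnc of the astrocyte list and the basement membrane genes Col4a1 and Nid1. In whole tissue, the list that a gene was put in does not show which cells held its RNA. The probes of Atp2a3 were unlike in size, at 14.8-fold (probe 371) and 3.14-fold (probe 613). The part of these shifts in the falls of the G1 and S-phase genes was not tested.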

How the data were processed

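Arrays measured total RNA of whole cerebellum at 5 ages. Per the labels, a column averages the signals of 2 experiments. The deposited values were read as percent of each probe's highest age, since all lie between 0.01 and 100 and 420 of 897 probes stand at exactly 100 at 1 age and 0 at 2 ages. The sources used here do not give the authors' background correction, scaling or choice of probes. Probes were named from the platform annotation where it gives 1 symbol (787 probes; 16 have several and 94 none), and all 7 probes matched RefSeq by gene identifier. From the percent values, log2 differences between ages were computed over all 897 probes (Python 3.11.15, numpy 2.4.6, pandas 2.3.3), with values under 1% set to 1% and calls at 2-fold. The limit of 1% was not in the first design. With 1 column per age no test was run. Limits of the 2 experiments assume that both lie between 0 and 100. The calculation was tested on simulated data. Named genes were the 6 members, the 3 nearest profiles of each probe, all measured genes of the G1 and Hedgehog lists, the 4 most changed at P56 against P7 of the S-phase and mitotic lists and the 2 most changed of each other list; Lig1 at P56 against P21 and Fbxw7, Cdkn1a and Neurod1 beyond that comparison were picked out after their values were seen. Members and lists were chosen with earlier results of these data known. Alternatives were other floors, a pseudocount of 1%, quantile normalization, division by column medians, calls at 3-fold and at 1.5-fold, P21 in place of P56 and, added after the data were seen, genes in place of probes and only probes whose experiments must both be lower. Promoters came from RefSeq (GRCm38.p6).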

Additional observations from a re-analysis of the deposited data

How the results depend on the processing

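The counts of G1 and S-phase probes lower at P56 (7 of 7 against E18 and against P7) and at P14 against P7 (6 of 7) stayed within 1.5 times under all alternatives run. P21 in place of P56 also gave 7. At 3-fold the counts were 6, 5 and 4 of 7 in that order. Where both experiments must be lower, each of them was 5 of 7. The small counts did not stay within 1.5 times. The 3 probes lower at P21 against P14 became 1 with a floor at the 10th or the 25th percentile of values (20.4% and 35.8%) and 1 where both experiments must be lower. The 1 probe lower at P56 against P21 (E2f1) became 0 with either floor, with quantile normalization, at 3-fold and where both experiments must be lower, and 2 without a floor, which adds Ccnd2 at 0.03% against 0.50%. At 1.5-fold, 1 probe (Cdk2) was higher at this step in place of 0. The 1 probe higher at P7 against E18 (Ccnd2) became 0 with a pseudocount of 1% and at 3-fold. Floors cannot show changes below them, so their losses follow from their construction. The same holds where both experiments must be lower, which was scored as a drop of over 50 points. No probe of the 7 stood above 24.1% at P21, and at P14 only Ccne1 (75.8%) stood above 50%. Changes of 2.34-fold (E2f1) and 2.02-fold (Ccnd2) likewise cannot pass at 3-fold. The cause of the remaining changes was not tested. No member's difference that was called changed sign. The called differences are the 7, 7, 6, 3, 1 and 1 counted above, and the rest of the 42 were within 2-fold from the start. Of the called ones, columns divided by their medians left 5 short of the threshold and quantile normalization 5. No paired analysis was possible because every age has 1 column. The spread between samples is unknown, and values near 0 are limited by the background of the arrays, which the sources used here do not give.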
